A study of Mus musculus with 2 samples.

Results

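Vip, Lamp5 and Sncg interneurons made up 99 of the nuclei that were sorted from injured cortex by an Atf3-driven reporter. They were chosen by the subclass name that the deposited table of nuclei gives to neurons, with 61 nuclei named Vip, 27 named Lamp5 and 11 named Sncg. These were 99 of 2580 nuclei in the neuron subset and of 8171 nuclei with any label. Each nucleus came from the ipsilateral cortex of an Atf3-CreER::Sun1-sfGFP mouse (genotype +/wt) at 7 days after mild traumatic brain injury (mTBI), and tamoxifen at 4 and 5 days after injury let cells with an active Atf3 promoter switch on a green nuclear envelope protein. Nuclei positive for GFP and for the DNA dye DRAQ5 were sorted and sequenced with droplet chemistry that reads the 3′ end of transcripts and counts molecules by unique molecular identifiers (UMIs). There were 2 libraries, 1 from a pool of 4 male and 1 from a pool of 4 female mice, all over 7 weeks of age. Both carried the same alleles, injury and tamoxifen, and no uninjured library was analysed here, so every value describes injured mice and nuclei that passed the sort. For the female library some GEO fields read male, and it is called female after its title.

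These 3 subclasses belong to the interneurons that arise in the caudal ganglionic eminence, an embryonic source of cortical GABAergic cells that settle mainly in the upper layers. Vip interneurons release vasoactive intestinal peptide and mainly inhibit other interneurons, Lamp5 interneurons include the neurogliaform cells, which release GABA in bulk, and Sncg interneurons overlap with basket cells that express cholecystokinin and the cannabinoid receptor Cnr1. Pvalb and Sst interneurons, the other large branch, arise in the medial ganglionic eminence and target the soma and the dendrites of pyramidal neurons. Atf3, whose promoter drove the sort, encodes a stress-induced bZIP transcription factor that neurons switch on after axon injury.

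The group held 53 nuclei of the male and 46 of the female library. In this order, male before female, all paired values are given. Their sums were 211121 and 375787 UMIs, and the median nucleus had 3302 and 6724 UMIs, against 4201 and 10127 in the 586 Pvalb and Sst nuclei, so sex, pool and depth cannot be told apart. The group was 15.3% (53 of 346) of the inhibitory neurons of the male library, with an exact (Clopper-Pearson) 95% interval of 11.7 to 19.6%. In the female library it was 13.6% (46 of 339), with an interval of 10.1 to 17.7%. The intervals overlap, and like all intervals here they cover counting error only. Vip nuclei numbered 34 and 27, Lamp5 nuclei 15 and 12, and Sncg nuclei 4 and 7. Of the 99 nuclei, 98 fell in a single deposited cluster of 109 nuclei, and 97 carried the same subclass name in the table's first mapping of all cells. No cell barcode of the group occurred in both libraries, and 0 of the 99 nuclei were called as doublets, although the caller marked under 0.5% of all nuclei and is taken as not having worked.

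The levels of the lineage markers are a description, since the labels were mapped from the same counts. Adarb2, a brain-specific relative of the RNA-editing deaminases that marks this branch, had at least 1 UMI in all 99 nuclei, with 1 to 844 UMIs a nucleus. Of the 586 Pvalb and Sst nuclei, 48 had an Adarb2 UMI and none had more than 2, and 93 of the 99 nuclei of the group were above that level. A UMI of Lhx6, Sox6, Sst or Pvalb, which mark the other branch, was seen in 3 of the 99 nuclei and in 490 of the 586. After nuclei were thinned to 2900 UMIs, which left out 19 and 5 shallower nuclei of the group and 91 and 13 Pvalb and Sst nuclei, Adarb2 was found in 97.1 and 100.0% of the group and in 2.97 and 3.21% of Pvalb and Sst nuclei. Microglia, which should lack it, had it in 6.67 and 11.8% at equal depth and in 7.53 and 13.8% before thinning.

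**Figure D1:**
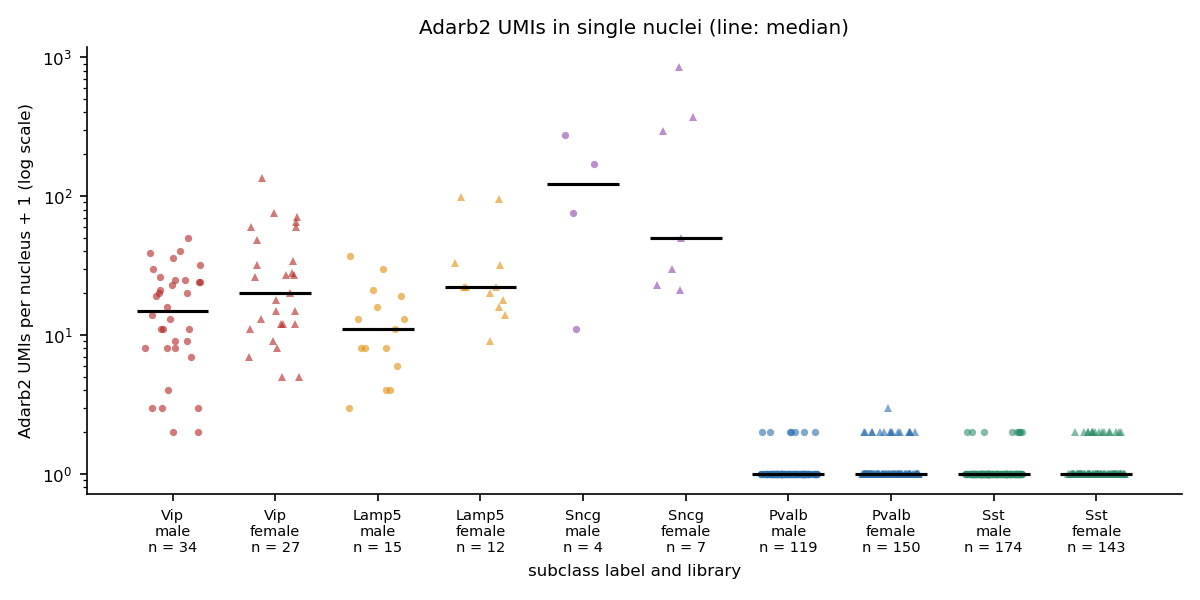
Adarb2 UMIs plus 1 in each nucleus (vertical log axis) by subclass label and library (horizontal axis), with 1 point a nucleus and the median as a line. The nuclei of the group reach 844 UMIs, while no Pvalb or Sst nucleus exceeds 2.

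The genes that name the subclasses were sparse. Vip (GRCm38, chr10:5639218-5647617, + strand) had UMIs in 8 of 34 male and 7 of 27 female Vip nuclei, with at most 5 in a nucleus. Lamp5 (chr2:136052239-136069917, + strand), which encodes a lysosome-associated membrane protein, had UMIs in 2 of 15 and 2 of 12 Lamp5 nuclei. Sncg (chr14:34370274-34374789, − strand), which encodes gamma-synuclein, was seen in 0 of 4 and 1 of 7 Sncg nuclei. Sst and Pvalb were sparse on the other side, with UMIs in at most 3 of the 293 Pvalb and Sst nuclei of a library. That count pools both subclasses, unlike the counts within Vip, Lamp5 or Sncg nuclei. In counts per 1000000 UMIs of a sum (CPM), Vip stood at 146 and 72.2 in Vip nuclei and Lamp5 at 49.9 and 50.9 in Lamp5 nuclei, with no Lamp5 UMI in Vip or Sncg nuclei. The subclass names rest on the mapping of whole profiles to a reference, which used these counts, Adarb2 (chr13:8202866-8768747, + strand) among them. Gad2 (chr2:22622205-22693874, + strand) marks GABAergic cells of both branches and had a UMI in 75.5 and 84.8% of the group and in 55.6 and 76.8% of Pvalb and Sst nuclei.

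Adarb2 differed among the 3 subclasses. It stood at 4559.9 and 4567 CPM in Vip nuclei and at 3095 and 3298 in Lamp5 nuclei. Sncg nuclei, at 19041 and 20926, were above both in each library, with 276 of 529 male and 844 of 1629 female UMIs in 1 nucleus each. Cnr1 was also highest in Sncg nuclei, with 684 and 449.6 CPM against 154 and 122 in Vip and 116 and 110.2 in Lamp5 nuclei, and 14 of the 19 male and 16 of the 35 female UMIs were in 1 Sncg nucleus each. Sums of Sncg nuclei rest on 4 and 7 nuclei and were not tested alone.

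**Figure D2:**
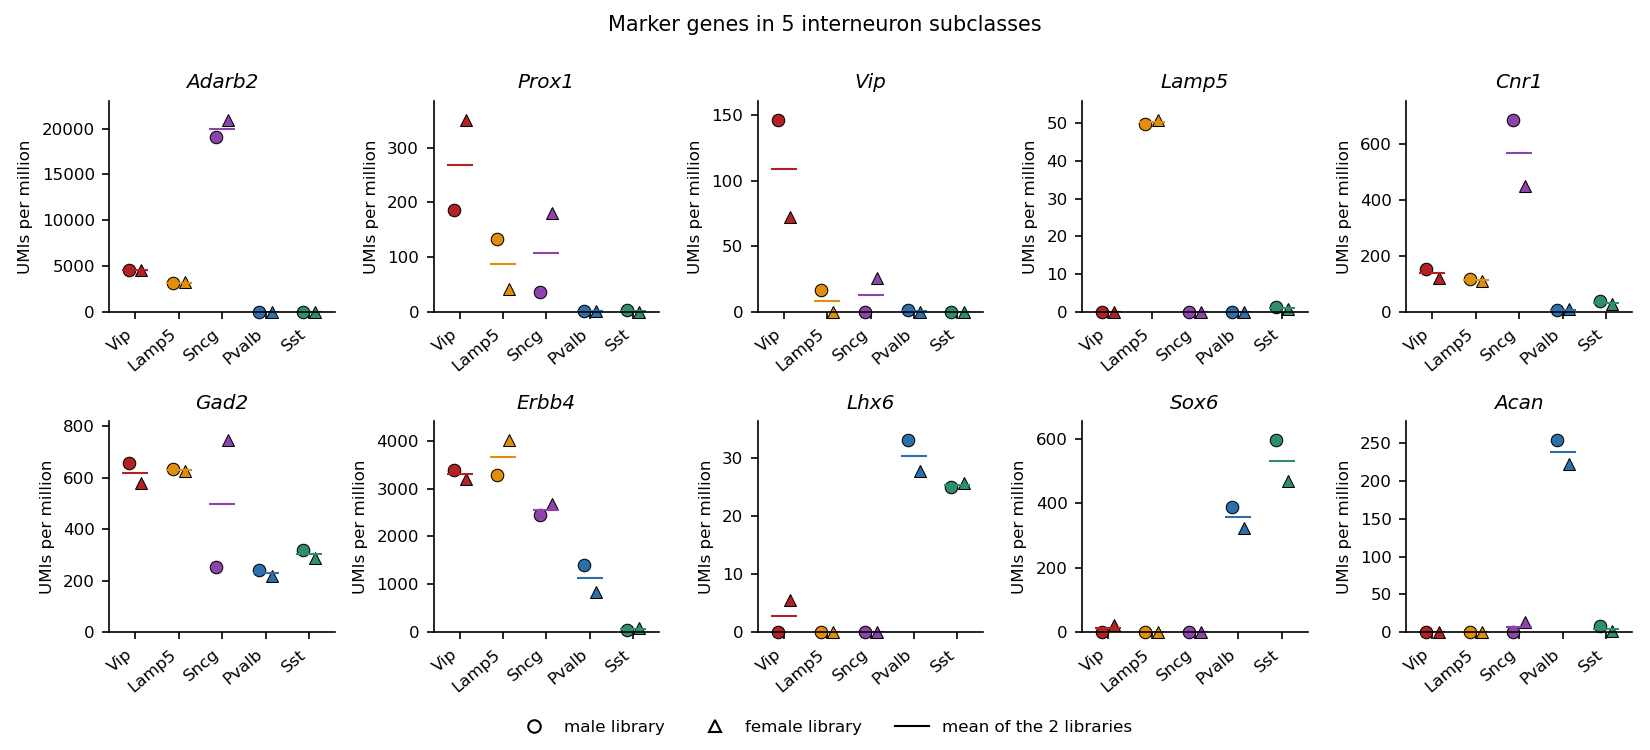
CPM (UMIs scaled to 1000000 a sum, vertical axes, each from 0) of 10 marker genes in summed nuclei of 5 interneuron subclasses, with a circle for the male library, a triangle for the female library and a line at their mean. Adarb2 and Prox1 are carried by the Vip, Lamp5 and Sncg sums, Sox6 by Pvalb and Sst, and Acan by Pvalb.

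Lists of markers of other cell types were summed as well. The 11 microglial markers used, a choice made after values were seen, summed to 152 and 79.8 CPM in the group, against 152 and 126 in Pvalb and Sst nuclei and 5511 and 4677 in microglia. In each library 2 of the 11 were at 0 in the group. The 10 excitatory markers summed to 422 and 503 against 317 and 219.5 in Pvalb and Sst nuclei, with 6 and 3 of them at 0, and the 8 astrocyte markers to 142 and 149 against 124 and 88.3, with 3 at 0 in each library. Most excitatory-marker UMIs were of Camk2a alone, with 73 of 89 and 152 of 189 in the group. In Pvalb and Sst nuclei Camk2a held 295 of 453 and 535 of 741. The 8 oligodendrocyte markers summed to 71 and 53.2 against 74.8 and 49.8, with 4 at 0 in each library. P2ry12 and Aqp4, which define microglia and astrocytes, had 0 UMIs in the group, and the part of RNA from other cells in the results was not tested gene by gene. The ambient profile of each library was subtracted in an alternative fit of the first comparison, in which 769 of the 826 calls given next were made again.

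The first comparison asked which genes set the group apart from Pvalb and Sst interneurons of the same libraries. UMIs were summed per library, and the quasi-likelihood test of edgeR was run over all genes past a low-count filter, with p-values adjusted by Benjamini-Hochberg and with 7 excitatory subclasses in the fit, so that the spread rests on 18 sums. Of 7894 genes, 826 (10.5%) had an adjusted p under 0.05, 453 higher (5.74%) and 373 lower (4.73%) in the group. Without the low-count filter the balance turned, with 436 higher and 532 lower. Because subclass names were assigned from these same counts, the test compares groups that were partly defined by the genes it tests. Each side had 2 sums, and p-values measure the spread between the sums in the fit. When each of the 4 sums was left out in turn, 241 of the 826 calls (29.2%) were made all 4 times, and the fit without the female sum of the group made the fewest, 347. The single sum left on that side is then assumed to vary like the others. For a named gene whose call was not made all 4 times, the highest adjusted p of the 4 is given.

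The 10 genes with the highest fold change in the group that changed alike in both libraries were Adarb2, Prox1, Vip, Pde11a, Sorcs3, Gm39185, Kit, Frem1, Rxfp1 and Atp6ap1l. Adarb2 stood at 6049 and 7557 CPM against 11.2 and 9.78 in Pvalb and Sst nuclei, far apart in both libraries (log2 fold change 9.30 ± 0.48, SE, adjusted p = 6.12e-11). Sorcs3, a sorting receptor of the VPS10 family, was at 1023 and 1067 against 8.39 and 11.3 (log2 fold change 6.61 ± 0.31, adjusted p = 1.43e-11) and had UMIs in 38 of 53 and 37 of 46 nuclei. Kit, the receptor of stem cell factor, was at 90 and 173 against 2.10 and 1.78 (log2 fold change 6.03 ± 0.59, adjusted p = 4.10e-07). Pde11a, a phosphodiesterase, was at 109 and 247 against 2.10 and 0.889 (log2 fold change 6.99 ± 0.68, adjusted p = 5.61e-07). Few UMIs on the other side left Vip with a wide range, at 34 UMIs against 1 (ratio 278, 46.7 to 11310), where the range is a counting interval. Frem1, which encodes an extracellular matrix protein, was higher as well (log2 fold change 5.94 ± 0.45, adjusted p = 2.37e-08), but 1 Sncg nucleus held 26 of 35 of its male UMIs and another 19 of 47 of its female UMIs. Rxfp1, a relaxin receptor, had 29 UMIs against 3 (ratio 79.2, 24.5 to 406), Gm39185 had 13 UMIs against 1 (ratio 106, 16 to 4523) and Atp6ap1l had 11 UMIs against 1 (ratio 90.1, 13.1 to 3877), with an adjusted p of up to 0.050 for Rxfp1 and 0.308 for Atp6ap1l without a sum.

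The 10 genes at the other end had 0 UMIs in the group in both libraries, so their folds are lower bounds against a floor of 3 UMIs over the group. They passed the low-count filter only through sums of other groups. No called gene had 0 UMIs in Pvalb and Sst nuclei, whose sums were larger, at 1430239 and 3375183 against 211121 and 375787 UMIs. The place of these 10 genes at this end cannot be told apart from the filter and the size of the sums. Crhbp, which encodes a binding protein of corticotropin-releasing hormone, was at 69.9 and 58.1 CPM in Pvalb and Sst nuclei, at least 12.1-fold higher than in the group (adjusted p = 5.44e-04). Pdyn, the precursor of dynorphin peptides, was at 43.3 and 29.9 and at least 6.64-fold higher (adjusted p = 0.00119), with Sst nuclei at 71.6 and 70.2 and Pvalb nuclei at 7.88 and 0. Ifit1, an interferon-induced gene, was at 53.1 and 50.4 and at least 10-fold higher (adjusted p = 0.00414, up to 0.0967 without a sum), at 41 and 54.2 in Pvalb and 62.8 and 45.2 in Sst nuclei. The Ifit1 UMIs lay in 22 of 293 male and 29 of 293 female Pvalb and Sst nuclei, with 44 of 170 female UMIs in 1 Pvalb nucleus. Its bound counts UMIs and does not cover this spread between nuclei. Nrap, Gm16178, Gm38399, Inppl1, Trim17, Ddx58 and Alg2 were at least 11.1, 10.6, 5.21, 3.75, 2.08, 2.08 and 1.83-fold higher in Pvalb and Sst nuclei. The calls of Gm38399 and Inppl1 had an adjusted p of up to 0.134 and 0.160 without a sum, and those of Trim17, Ddx58 and Alg2 were lost in each of the 4 fits (up to 0.310, 0.322 and 0.344).

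Genes of the caudal branch were higher and some genes of the medial branch lower in the group. The labels were mapped from these same counts, so the values of lineage genes describe the labelled groups and are no independent result. Of 10 genes of the caudal eminence list, 7 passed the filter and all 7 were higher in the group, with a median log2 fold change of 4.42 against -0.01 over all genes tested. Prox1, a homeodomain factor that these cells keep into adulthood, was at 152 and 218 CPM against 2.10 and 0.296 (log2 fold change 7.52 ± 0.64, adjusted p = 1.23e-07). Egfr, the receptor of epidermal growth factor, was at 99.5 and 146 against 0.699 and 2.67, and Npas1, a bHLH-PAS factor, at 75.8 and 45.2 against 2.80 and 2.37 (adjusted p = 3.62e-06 and 8.71e-04), and neither overlapped the other side. Of the Npas1 UMIs, 1 Sncg nucleus held 7 of 16 male and another 11 of 17 female ones, and 1 Vip nucleus held 19 of 55 female UMIs of Egfr. Cnr1 (log2 fold change 3.25 ± 0.31), Npas3 (1.22 ± 0.23) and the nuclear receptor gene Nr2f1 (2.67 ± 0.57) were higher too, the last with an adjusted p of up to 0.246. Of 14 genes of the medial eminence list, 11 were tested, 4 were lower and 7 did not pass, with a median of -1.16, and with the library as a block 1 was higher and 4 were lower. Sox6, which specifies Pvalb and Sst cells, was at 0 and 10.6 against 504 and 385 (log2 fold change -6.03 ± 0.47, adjusted p = 2.37e-08). Satb1, a chromatin organizer, was at 42.6 and 34.6 against 241 and 155 (-2.40 ± 0.33), and Nxph1, a ligand of neurexins, at 417 and 359 against 1108 and 979.8 (-1.47 ± 0.23), again with no overlap. Lhx6, the factor that starts the medial branch, had 1 UMI against 132 (ratio 16.1, 2.84 to 642) (adjusted p = 0.0316), and its call was lost in each fit without a sum (adjusted p 0.0801 to 0.162).

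Several genes that make, move or go with GABA were higher in the group. Of 12 genes, 8 were tested, 4 were higher and 0 lower, where 5.74% of all genes tested were higher and 4.73% lower. The median log2 fold change of the list was 1.28. Gad2, a GABA-synthesizing enzyme, was at 597 and 628 CPM against 285 and 249, with no overlap (log2 fold change 1.17 ± 0.21, adjusted p = 5.52e-04). Its share of nuclei with a UMI at equal depth was 76.5 and 68.3% against 42.6 and 45.4%, and 2.67 and 2.06% in microglia. Gad1, the other synthesizing enzyme, was at 166 and 247 against 226 and 185, so the sides overlapped (adjusted p = 0.996). Erbb4, a neuregulin receptor, was at 3245 and 3348 against 646 and 524 (2.46 ± 0.43, adjusted p = 5.52e-04), where Pvalb nuclei alone had 1402 and 846 and Sst nuclei 44 and 89.7. On that side 1 Pvalb nucleus held 336 of 924 male UMIs of Erbb4. Dlx6os1, a long noncoding RNA of the Dlx locus, was at 279 and 322 against 35 and 46.8 (2.81 ± 0.35), with 29 of 59 male UMIs in 1 Sncg nucleus.

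Potassium channel genes differed in both directions. Of 38 genes of potassium and HCN channels, 35 were tested, 11 were higher and 6 lower in the group, where 5.74% of all genes tested were higher and 4.73% lower. The median log2 fold change of the list was 0.29. Kcnn2, a small-conductance calcium-activated channel, was at 251 and 253 CPM against 15.4 and 12.1 (log2 fold change 4.18 ± 0.34, adjusted p = 4.0e-08), with 22 of 53 male UMIs in 1 Sncg nucleus. Kcnt2, a sodium-activated channel, was at 213 and 194 against 15.4 and 9.78 (4.04 ± 0.35). Kcnq5, which carries part of the M-current, was at 597 and 1019 against 141 and 117 (2.64 ± 0.33, adjusted p = 1.27e-05). Its relative Kcnq3 went the other way, at 753 and 447 against 1854 and 1611 (-1.59 ± 0.22, adjusted p = 4.49e-05). The leak channel gene Kcnk9 had 26 UMIs against 3 (ratio 71, 21.8 to 366). Kcnip1 and Kcnip4, which encode partners of A-type channels, were higher by 2.65 ± 0.24 and 1.59 ± 0.31 on the log2 scale, as were Kcnj3, an inward rectifier (2.03 ± 0.23), and Kcnb2, a delayed rectifier (1.79 ± 0.24). Kcnc2, a Kv3 channel that serves fast spiking, was lower at 554 and 511 against 1293 and 1128 (-1.22 ± 0.22, adjusted p = 7.43e-04). Of the 17 calls, 10 were made in all 4 fits without a sum, those of the genes named so far. Among the others were Kcnd3 and Kcnh1, which were higher, and Kcnma1, Kcnmb2, Kcnmb4 and Kcnh5, which were lower, with adjusted p up to 0.0607, 0.0751, 0.173, 0.226, 0.261 and 0.0981.

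Of 23 sodium and calcium channel genes, 19 were tested, 7 were higher and 1 lower, where 5.74% of all genes tested were higher and 4.73% lower. With the library as a block 7 of the list were higher and 5 lower. Cacna2d1, an auxiliary calcium channel subunit, was at 474 and 436 CPM against 41.3 and 31.7 (log2 fold change 3.61 ± 0.22, adjusted p = 8.45e-10). Cacna2d2, its paralogue, was lower without the block, at 18.9 and 10.6 against 66.4 and 83.6 (-2.49 ± 0.51, adjusted p = 0.00225, up to 0.114 without a sum). The beta subunit gene Cacnb2 was higher at 469 and 439 against 111 and 117 (1.94 ± 0.22), and the T-type channel gene Cacna1g at 47.4 and 37.3 against 9.09 and 4.15 (2.73 ± 0.57). Scn1a, a sodium channel gene, was at 123 and 218 against 67.8 and 93.3 (1.08 ± 0.29, adjusted p = 0.0173), and its adjusted p was 0.699 without the female sum of the group. Scn9a, Nalcn and Cacna1d were the other 3 that were higher, with adjusted p up to 0.322, 0.0666 and 0.470.

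**Figure D3:**
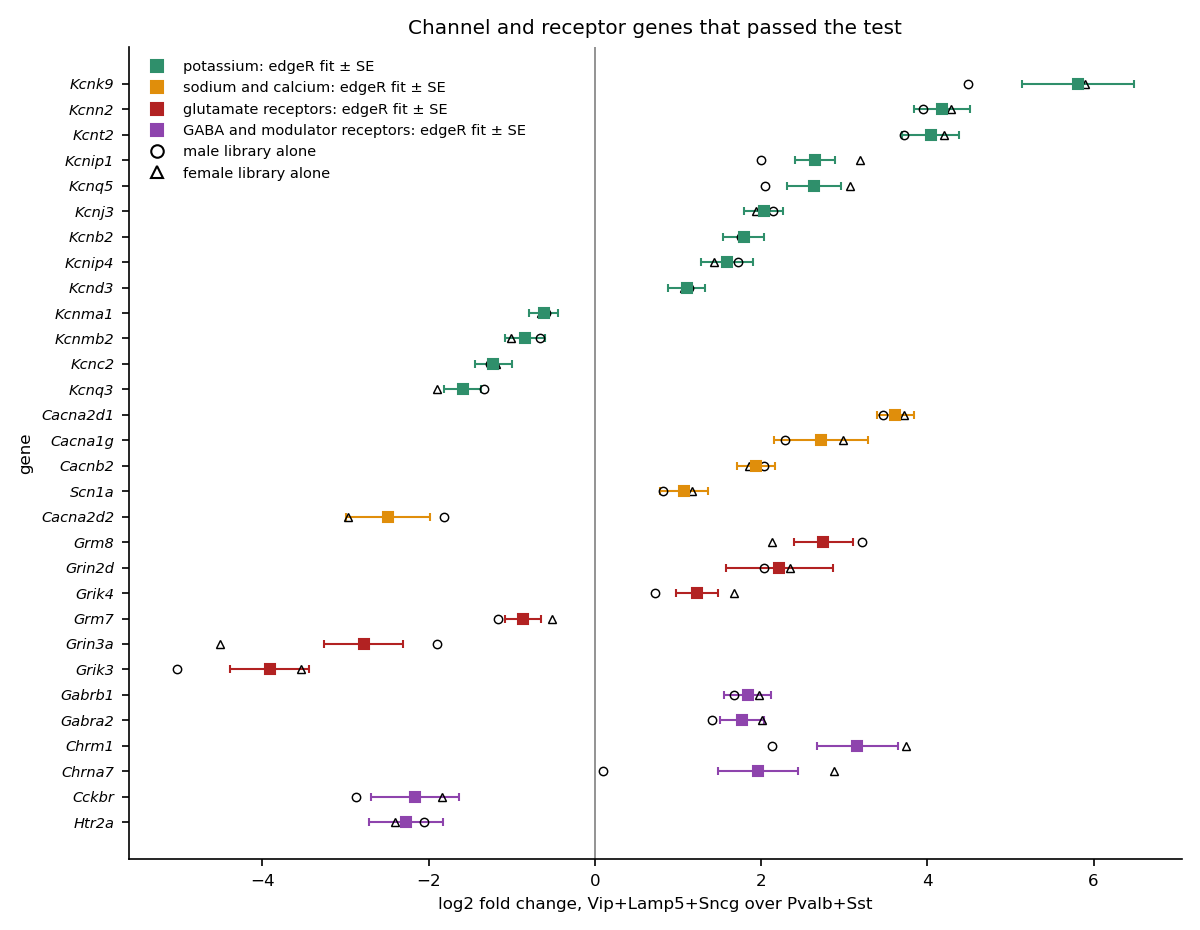
Log2 fold change of the Vip, Lamp5 and Sncg sums over the Pvalb and Sst sums (horizontal axis) for 30 channel and receptor genes that passed (vertical axis), with squares for the edgeR estimate, bars for its SE, circles for the male and triangles for the female library alone. Potassium channel genes lie on both sides of 0, with Kcnn2 at 4.18 and Kcnq3 at -1.59.

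Receptor genes also split. Of 21 glutamate receptor genes tested, 6 were higher and 4 lower, where 5.74% of all genes tested were higher and 4.73% lower. The kainate receptor gene Grik3 was at 4.74 and 16 CPM against 166 and 184 (log2 fold change -3.91 ± 0.48, adjusted p = 1.03e-05), below both Pvalb and Sst nuclei in each library. Grin3a, an NMDA receptor subunit gene (-2.78 ± 0.47), was lower as well, but Pvalb nuclei had only 36.3 and 32 CPM, against 469 and 392 in Sst nuclei. The metabotropic receptor gene Grm8 was higher at 223 and 90.5 against 23.1 and 19.6 (2.75 ± 0.36, adjusted p = 2.03e-05). Among the calls of this list that were not made in all 4 fits without a sum were those of Grik4, Grin2d, Grik1, Grin2b and Grid1, which were higher, and of Grm7, which was lower (adjusted p up to 0.134, 0.276, 0.197, 0.135, 0.238 and 0.174).

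Of 15 genes of GABA receptors, 14 were tested and 2 were higher, Gabra2 at 118 and 146 CPM against 43.3 and 34.7 (log2 fold change 1.77 ± 0.27) and Gabrb1 at 322 and 327 against 97.9 and 80.3 (1.84 ± 0.28). With the library as a block in the fit, 4 were higher. Of 29 neuromodulator receptor genes, 15 were tested, 4 were higher and 2 lower. Beside both lists, 5.74% of all genes tested were higher and 4.73% lower without the block. The muscarinic receptor gene Chrm1 was at 33.2 and 42.6 against 6.99 and 2.67 (3.16 ± 0.49, adjusted p = 1.43e-04), apart in both libraries. Chrna7, a nicotinic subunit, was at 28.4 and 109 against 25.9 and 13.9, close in the male and apart in the female library (1.96 ± 0.48, adjusted p = 0.00989), and its adjusted p was 0.872 without the female sum of the group. The noradrenaline receptor gene Adra1b was higher, and the serotonin receptor gene Htr2a (-2.28 ± 0.45) and the cholecystokinin receptor gene Cckbr (-2.17 ± 0.53) were lower, with adjusted p up to 0.157, 0.0693 and 0.0925.

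Of 21 neuropeptide genes, 11 were tested, and Vip and Penk were higher and Pdyn lower, where 5.74% of all genes tested were higher and 4.73% lower. Penk, the precursor of enkephalins, was at 61.6 and 128 CPM against 20.3 and 26.4 (log2 fold change 2.02 ± 0.39, adjusted p = 0.00124, up to 0.317 without a sum), with all of its male UMIs in Vip nuclei. Cck was at 18.9 and 18.6 against 7.69 and 2.67 (2.0 ± 0.77, adjusted p = 0.119), and with the library as a block its adjusted p was 0.0401. The block raised the calls of this list from 3 to 6. Of the Lamp5 list, 6 of 12 genes were tested and 2 were higher, Kit and Dock5, a guanine nucleotide exchange factor (3.76 ± 0.61). Of the Vip list, 4 of 12 were tested and 2 were higher, Vip and Penk. Of the Sncg list, 3 of 6 were tested, and Cnr1 and Col25a1, a membrane collagen gene, were higher (4.11 ± 0.38 for the latter).

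Among genes of synaptic adhesion and axon guidance more were higher than lower, where 5.74% of all genes tested were higher and 4.73% lower. Of 39 adhesion genes tested, 11 were higher and 5 lower, with a median log2 fold change of 0.22, and with the library as a block 15 and 7. Of 32 guidance genes, 8 were higher and 3 lower, with a median of 0.55, and with the block 11 and 5. Sdk1, a sidekick adhesion molecule, was at 1047 and 865 CPM against 151 and 157 (log2 fold change 2.58 ± 0.23, adjusted p = 1.52e-07). Lrrtm4, a postsynaptic organizer, was at 1615 and 1615 against 436 and 242 (2.23 ± 0.23), with 141 of 341 male UMIs in 1 Sncg nucleus. The contactin gene Cntn5 was at 1667 and 1064 against 273 and 256 (2.31 ± 0.33), where 1 Pvalb nucleus held 120 of 391 male UMIs of the other side. Il1rapl2, a synapse organizer, was lower at 9.47 and 10.6 against 217 and 130.4 (-4.07 ± 0.64, adjusted p = 1.87e-04). Of the guidance genes, Robo2, a receptor of Slit proteins, was higher at 938 and 708 against 428 and 309 (1.12 ± 0.21), and Slit2, a ligand, lower at 18.9 and 53.2 against 166 and 175 (-2.12 ± 0.36, adjusted p = 4.17e-04). The semaphorin gene Sema3c was higher by 1.64 ± 0.25, and Sema5a by 2.78 ± 0.42, with an adjusted p of up to 0.127 and 24 of 48 female UMIs in 1 Lamp5 nucleus. Acan, which encodes the aggrecan of perineuronal nets and was named after its values were seen, had 1 UMI against 599 (ratio 73.2, 13.1 to 2894), with Pvalb nuclei as its carriers in the plot of marker genes.

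In the lists of other cell types, 1 of 8 excitatory markers tested passed, Camk2a, which was higher in the group at 346 and 404 CPM against 206 and 159 (edgeR, adjusted p = 0.00313, up to 0.126 without a sum). Of 4 astrocyte markers the glutamate transporter genes Slc1a2 and Slc1a3 were higher (adjusted p = 0.0114 and 0.0240, up to 0.407 and 0.130), and of 6 microglial markers Dock8 was lower (adjusted p = 0.0246, up to 0.438). Of the oligodendrocyte list 2 genes were tested and 0 passed in edgeR or DESeq2, with 1 at an unadjusted p under 0.05. Beside these 4 lists, 10.5% of all genes tested passed in edgeR.

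Genes of the injury response were compared next. Atf3 (chr1:191170296-191218039, − strand), by whose promoter the cells were marked, was at 118 and 216 CPM in the group and at 229 and 343 in Pvalb and Sst nuclei. The group was below them in each library, but its female value was close to their male value (log2 fold change -0.77 ± 0.38, adjusted p = 0.261, and 0.0185 with the library as a block). Of the female UMIs of Atf3 in the group, 32 of 81 were in 1 Sncg nucleus. At equal depth 17.6 and 31.7% of the nuclei of the group had an Atf3 UMI, with intervals of 6.76 to 34.5% and 18.1 to 48.1%, against 36.6 and 48.6% of Pvalb and Sst nuclei and 10.7 and 8.22% of microglia. Before thinning these shares were 26.4 and 43.5%, 44.4 and 72.4% and 3.41 and 9.36%. Thinning left 75 of 1700 male and 1265 of 2362 female microglia. Transcripts of the reporter had a UMI in 1 of 53 and 2 of 46 nuclei.

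Of the 15 genes of the AP-1 and bZIP list, 8 were tested and 0 passed in edgeR or DESeq2, with 0 at an unadjusted p under 0.05 and 1, Atf3, passing with the block. Jun, a subunit of AP-1, was at 61.6 and 69.2 CPM against 59.4 and 66.7. Of 32 genes associated with regeneration, 24 were tested, 1 was higher and 6 were lower, where 5.74% of all genes tested were higher and 4.73% lower. The list had a median log2 fold change of -0.62, and with the block 1 was higher and 10 were lower. Plk2, a stress-induced polo-like kinase, was the 1 that was higher, at 56.8 and 45.2 against 9.09 and 8.0 with no overlap (2.51 ± 0.36, adjusted p = 6.41e-05). Lifr, a receptor of the leukaemia inhibitory factor family, was lower at 42.6 and 93.1 against 204 and 295 (-1.82 ± 0.38, adjusted p = 0.00264). These were the 2 calls made in each fit without a sum. Sprr1a, given next, had UMIs in only 2 of 53 and 2 of 46 nuclei of the group. At equal depth its shares were 2.94 and 0% against 7.43 and 8.21% of Pvalb and Sst nuclei, with intervals of up to 15.3 and 8.60% for the group. Sprr1a, a small proline-rich protein induced by axotomy, was at 9.47 and 5.32 against 29.4 and 32.6 (-2.21 ± 0.61, adjusted p = 0.0223, up to 0.363 without a sum). The Krüppel-like factor genes Klf6 (18.9 and 18.6 against 45.4 and 54.5, adjusted p up to 0.308) and Klf7 (104 and 119.7 against 182 and 204, up to 0.217), Ret, a receptor of the GDNF family (-1.29 ± 0.41, up to 0.245), and Flrt3, an adhesion molecule (-1.50 ± 0.47, up to 0.491), were the other 4.

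Several regeneration genes did not pass. Gap43, a growth cone protein, was at 493 and 381 CPM against 337 and 301 (log2 fold change 0.40 ± 0.32, adjusted p = 0.561). Stmn2, a regulator of microtubules, was at 493 and 412 against 501 and 489 (-0.18 ± 0.24, adjusted p = 0.773). Ecel1, an endopeptidase that is induced by nerve injury, was at 218 and 194 against 257 and 396 (-0.73 ± 0.41, adjusted p = 0.339, and 0.0317 with the block). At equal depth 41.2 and 41.5% of the nuclei had its UMIs, against 51.5 and 64.3% of Pvalb and Sst nuclei and 12 and 6.48% of microglia. Sox11, a transcription factor of growing neurons, was at 137 and 119.7 against 249 and 226 (-0.93 ± 0.34, adjusted p = 0.0971, and 0.0258 with the block), below in both libraries.

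No gene passed in the lists of the integrated stress response (14 tested), of p53 and apoptosis (13) or of DLK, JNK and SARM1 signalling (14), by edgeR or DESeq2, where 1, 1 and 2 genes had an unadjusted p under 0.05. With the block the third list had 2 lower genes, Dusp10 (adjusted p = 0.0487) and Mapk8ip3 (0.0213), a phosphatase and a scaffold of JNK. Ddit3, the transcription factor CHOP, was at 71 and 29.3 CPM against 88.8 and 46.5 (log2 fold change -0.55 ± 0.48, adjusted p = 0.597), below in each library although the sides overlapped. Of 22 activity-dependent genes, 14 were tested and 0 passed in edgeR or DESeq2, with 3 at an unadjusted p under 0.05. With the block Egr1 (-1.25 ± 0.42, adjusted p = 0.0198) and Bdnf (3 UMIs against 136 (ratio 5.54, 1.85 to 27.2), adjusted p = 0.0293) were lower and Pcsk1, a prohormone convertase (1.23 ± 0.42, adjusted p = 0.0279), was higher. The medians of these 4 lists were -0.30, -0.31, -0.01 and -0.41, the last -0.06 with genes at 0 UMIs set to their bound.

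**Figure D4:**
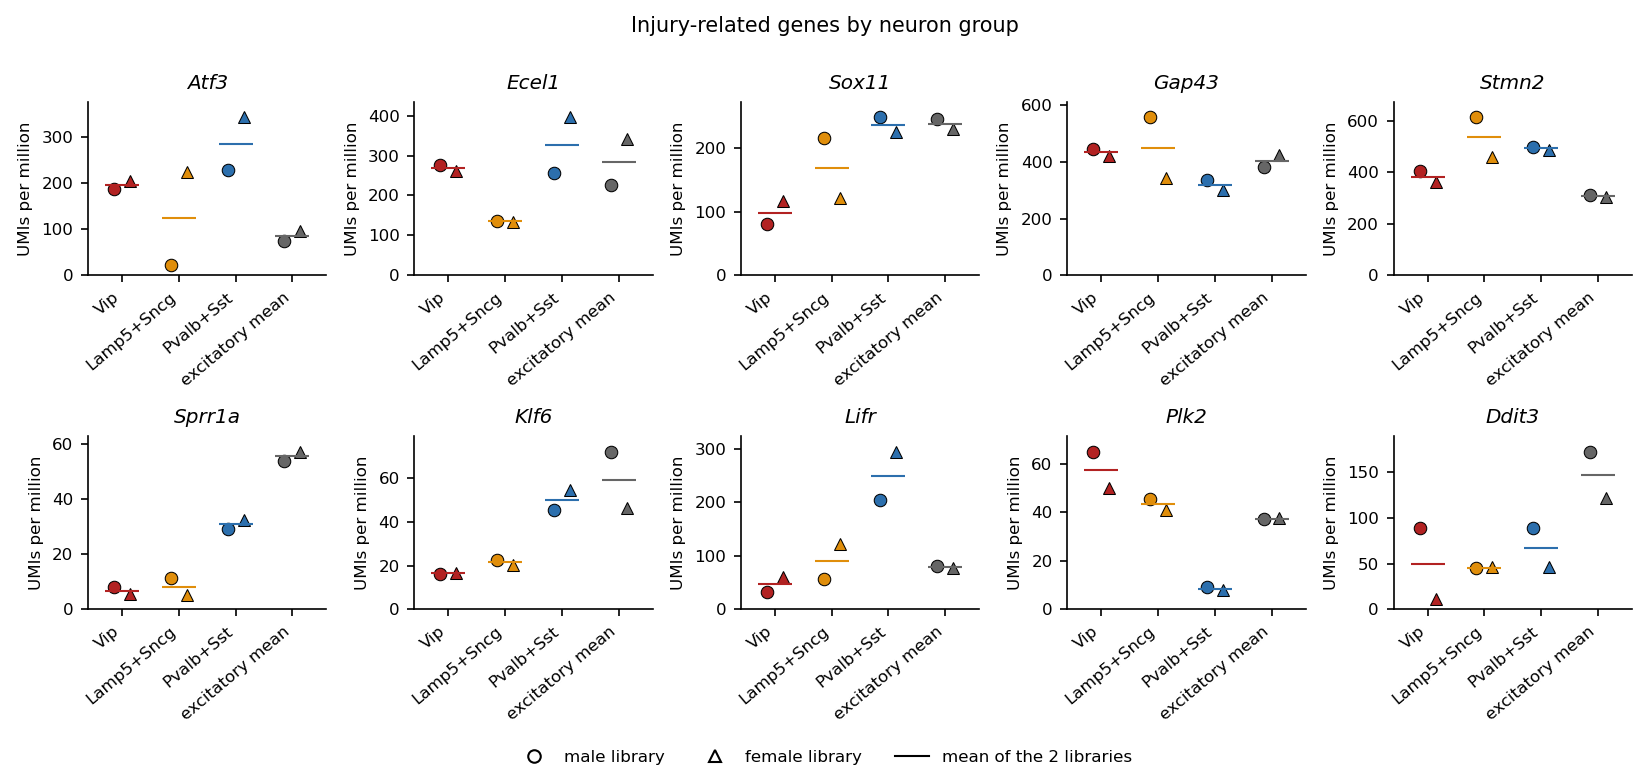
CPM (UMIs scaled to 1000000 a sum, vertical axes, each from 0) of 10 injury-related genes in summed Vip nuclei, pooled Lamp5 and Sncg nuclei, pooled Pvalb and Sst nuclei and as the mean of 7 excitatory subclasses, with a circle for the male library, a triangle for the female library and a line at their mean. Atf3 in Lamp5 and Sncg nuclei differs between libraries, at 22.8 and 225, while Lifr and Sprr1a lie below and Plk2 above the Pvalb and Sst values in both libraries.

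Vip nuclei alone were set against the same Pvalb and Sst nuclei, since they are the most numerous of the 3 subclasses. Of 7071 genes, 638 (9.02%) passed, 325 higher (4.60%) and 313 lower (4.43%). This comparison shares its second side with the first. The highest 10 were Adarb2, Vip, Prox1, Sorcs3, Rxfp1, Cbln2, Egfr, Prox1os, Trpc7 and Pde11a. Cbln2, a synaptic organizer of the cerebellin family, was at 114 and 50 CPM against 1.40 and 0.593 (log2 fold change 6.25 ± 0.96, adjusted p = 1.17e-04). Pde11a was at 8.11 and 117, low in the male and high in the female library. Trpc7, a cation channel gene, had 14 UMIs against 3 (ratio 74, 20.6 to 401), Prox1os, an antisense RNA of Prox1, had 11 UMIs against 2 (ratio 87.2, 19 to 809). Without the female Vip sum the adjusted p was 0.384 for Rxfp1 and 0.722 for Pde11a, and Prox1os passed the low-count filter in only 1 of the 4 fits without a sum. The 10 lowest had 0 UMIs in Vip nuclei and passed the low-count filter only through other groups, and no called gene had 0 UMIs in the larger Pvalb and Sst sums. Bounds put Acan at least 12.6-fold, Eya4 11.6-fold, Phldb2 11-fold, Slc6a5 6.77-fold, Gm14221 6.71-fold, Crhbp 6.23-fold, Myo5b 6.06-fold, Nrap 5.74-fold, Gm16178 5.49-fold and Ifit1 5.17-fold higher in Pvalb and Sst nuclei. Of these, Gm14221, Crhbp, Myo5b, Nrap, Gm16178 and Ifit1 had an adjusted p above the threshold without the female Vip sum (0.0715, 0.0877, 0.0993, 0.151, 0.0924 and 0.248).

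Of 24 regeneration genes 1 was higher and 3 were lower in Vip nuclei, where 4.60% of all genes tested were higher and 4.43% lower. Within the other lists, Vip nuclei had 6 of 7 tested caudal eminence genes higher and 3 of 9 medial eminence genes lower, with 1 higher. Potassium and HCN channel genes were higher for 10 and lower for 4 of 31. Klf7 was at 56.8 and 33.3 CPM against 182 and 204 (log2 fold change -2.20 ± 0.34, adjusted p = 1.51e-04) and Lifr at 32.5 and 61.1 against 204 and 295 (-2.39 ± 0.48, adjusted p = 0.00183), both below the other side in each library. Plk2 was at 64.9 and 50 against 9.09 and 8.0 (2.68 ± 0.43, adjusted p = 1.91e-04), and these 3 calls were made in each fit without a sum. Pcsk1 was higher (1.66 ± 0.49, adjusted p = 0.0339, up to 0.349 without a sum) and Flrt3 lower, with 3 UMIs against 224 (ratio 4.71, 1.59 to 23), adjusted p = 0.0368, up to 0.266. Atf3 was at 187 and 206 against 229 and 343 (-0.59 ± 0.47, adjusted p = 0.562). Ecel1 was at 276 and 261 against 257 and 396 (-0.34 ± 0.42, adjusted p = 0.752), above in the male and below in the female library.

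The third comparison was made within the group, between Vip nuclei and pooled Lamp5 and Sncg nuclei, to see how its members differ among themselves. Of the same 7071 genes, 167 (2.36%) passed, 58 higher (0.820%) and 109 lower (1.54%) in Vip nuclei, and 40 of the 167 were called in all 4 fits without a sum. The pooled side held 19 nuclei of each library, and for several genes the levels of its 2 subclasses are given. Ptprm, a receptor tyrosine phosphatase that mediates adhesion, was at 73 and 72.2 CPM in Vip nuclei against 1331 and 1762 (log2 fold change -4.39 ± 0.30, adjusted p = 4.0e-09). Nxph1 was at 24.3 and 66.7 against 967 and 628 (-3.94 ± 0.39, adjusted p = 2.20e-06), with Lamp5 nuclei at 1415 and 949 and Sncg nuclei at 0 and 141. Reln, the secreted glycoprotein reelin, was at 105 and 66.7 against 671 and 669 (-2.98 ± 0.42, adjusted p = 1.70e-04), with Lamp5 nuclei at 982 and 1068 and Sncg nuclei at 0 and 64.2. Col25a1 had 1 UMI against 205 (ratio 219, 38.9 to 8697), and in the group 1 Sncg nucleus held 90 of 111 of its male and another 55 of 95 of its female UMIs.

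Of the 10 genes highest in Vip nuclei, Gpc6, Car10 and Shisa6 had over 3 UMIs on the pooled side and were called in every fit without a sum. Gpc6, a glypican, was at 657 and 250.0 CPM against 34.1 and 25.5 (log2 fold change 3.96 ± 0.66, adjusted p = 9.91e-04), Car10, a secreted carbonic anhydrase-related protein that binds neurexins, at 1939 and 1056 against 34.1 and 229.8 (3.27 ± 0.53), and Shisa6, an auxiliary subunit of AMPA receptors, at 195 and 256 against 22.8 and 20.4 (3.44 ± 0.57). Trib3, a stress-induced pseudokinase, had 14 UMIs in Vip nuclei and 0 in Lamp5 and Sncg nuclei, at least 4.37-fold higher (adjusted p = 0.0285, up to 0.328 without a sum), and Dnajc16, a co-chaperone, 11 against 0, at least 3.43-fold. Vwc2l had 31 UMIs against 1 (ratio 29, 4.83 to 1182), Trhde had 31 UMIs against 2 (ratio 14.5, 3.69 to 125), Polr3e had 15 UMIs against 1 (ratio 14, 2.16 to 591), Myo18b had 30 UMIs against 2 (ratio 14, 3.56 to 121) and Tsga10 had 23 UMIs against 2 (ratio 10.8, 2.66 to 94.1). Without a sum the adjusted p was up to 0.369 for Dnajc16, 0.163 for Vwc2l, 0.0835 for Trhde, 0.182 for Polr3e, 0.494 for Myo18b and 0.553 for Tsga10.

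Of the 10 genes lowest in Vip nuclei, Megf10, Pcdh19, Dock5 and Il1rl2 had 0 UMIs there, so they passed the low-count filter only through other groups. They were at least 11.8-fold, 9.26-fold, 6.41-fold and 4.99-fold higher in the other 2 subclasses. Of these, Megf10 had 23 of 29 female UMIs in 1 Sncg nucleus and Pcdh19 14 of 14 male UMIs in another. Col19a1, a collagen gene, was at 24.3 and 5.56 CPM against 398 and 286 (log2 fold change -4.59 ± 0.57, adjusted p = 3.33e-05), with Sncg nuclei at 1116 and 629. Igsf11, an adhesion molecule, had 2 UMIs against 54 (ratio 28.9, 7.61 to 244), Ak5 had 1 UMI against 46 (ratio 49.2, 8.40 to 1984), Fbxo32 had 1 UMI against 23 (ratio 24.6, 3.99 to 1013) and Bcl11b had 1 UMI against 22 (ratio 23.5, 3.80 to 970.5). All UMIs of Dock5 and Bcl11b on the pooled side were in Lamp5 nuclei. Without a sum the adjusted p was up to 0.467 for Megf10, 0.222 for Pcdh19, 0.122 for Dock5, 0.242 for Il1rl2, 0.159 for Ak5, 0.135 for Fbxo32 and 0.163 for Bcl11b.

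Some channel and receptor genes also differed between Vip and the pooled nuclei, where 0.820% of all genes tested were higher and 1.54% lower in Vip nuclei. Kcnh7, an ERG potassium channel, was at 114 and 156 CPM in Vip nuclei against 1275 and 1093 (log2 fold change -3.06 ± 0.35, adjusted p = 1.29e-05), and Kcnb2 at 511 and 811 against 125 and 163 (2.19 ± 0.33, adjusted p = 2.98e-04). Of the 31 potassium and HCN genes tested, 3 were higher and 1 lower, and with the block 5 and 4. Kcnmb2 and Kcnc2 were the other 2 that were higher, with adjusted p up to 0.164 and 0.227. Of 21 glutamate receptor genes, 4 were higher and 1 lower, and with the block 5 and 3. Grik4, a kainate receptor gene, was at 276 and 422 against 45.5 and 35.7 (3.21 ± 0.42, adjusted p = 6.08e-05). The metabotropic receptor gene Grm7 was at 1379 and 1578 against 523 and 536 (1.51 ± 0.25, adjusted p = 7.50e-04). Grm8 was higher and Grik1 lower, with adjusted p up to 0.161 and 0.353. Of 19 sodium and calcium channel genes 1 was higher, Cacna1e (up to 0.201), and 1 lower, Cacna2d1, at 268 and 256 against 762 and 603 (-1.33 ± 0.24, adjusted p = 0.00186), with Lamp5 nuclei at 1048 and 797. With the block this list had 1 higher and 3 lower.

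**Figure D5:**
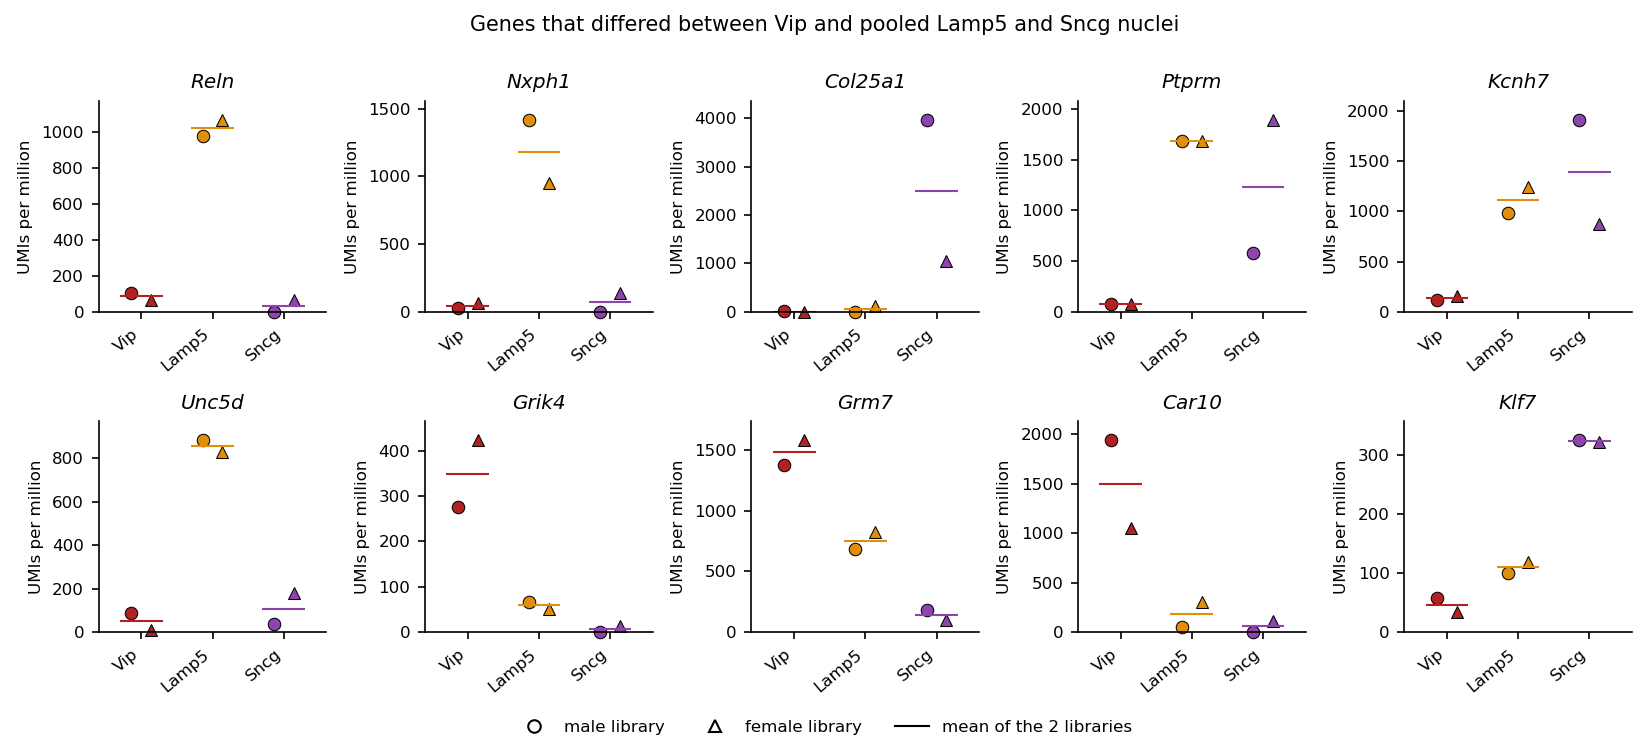
CPM (UMIs scaled to 1000000 a sum, vertical axes, each from 0) of 10 genes that differed between Vip and pooled Lamp5 and Sncg nuclei, shown for the 3 subclasses apart, with a circle for the male library, a triangle for the female library and a line at their mean. Reln and Unc5d are carried by Lamp5 nuclei, Col25a1 by Sncg nuclei and Grik4 by Vip nuclei.

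Of 39 adhesion genes 4 were higher and 6 lower in Vip nuclei, where 0.820% of all genes tested were higher and 1.54% lower. Lrrtm4 was among the lower at 868 and 783 against 2663 and 2379.9 CPM (log2 fold change -1.57 ± 0.24), with Sncg nuclei at 7199 and 4316. Of 30 guidance genes 4 were lower, and Unc5d, a netrin receptor gene, was at 89.3 and 11.1 against 615 and 572 (-3.70 ± 0.42, adjusted p = 1.29e-05). Chrna7 had 2 UMIs against 45 (ratio 24.1, 6.28 to 205) and was the 1 of 15 neuromodulator receptor genes that passed (adjusted p = 0.00524, up to 0.317 without a sum). Among 8 GABA genes 2 were lower, Dlx6os1 at 122 and 111 against 501 and 516 (-2.10 ± 0.40, adjusted p up to 0.0833) and the factor gene Maf (up to 0.354). Of the 14 GABA receptor genes 0 passed in edgeR, where 3 had an unadjusted p under 0.05, and DESeq2 called 1. Adarb2 was at 4559.9 and 4567 against 8137 and 10306 (-0.99 ± 0.34, adjusted p = 0.165, and 0.0136 with the block), and Cck had 0 UMIs in Vip nuclei against 11 (adjusted p = 0.113, and 0.0444 with the block).

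Between Vip and the other 2 subclasses, the injury lists had 1 call in each of 3 lists and 0 in the other 3, where 2.36% of all genes passed. Of 24 regeneration genes 1 did, Klf7, which was lower in Vip nuclei at 56.8 and 33.3 CPM against 171 and 199 (log2 fold change -2.10 ± 0.40, adjusted p = 0.00324, up to 0.124 without a sum), with Sncg nuclei at 324 and 321. Of the 39 female UMIs on the pooled side, 21 were in 1 Sncg nucleus. Homer1, a postsynaptic scaffold induced by activity, was higher at 252 and 239 against 68.3 and 97 (1.51 ± 0.36, adjusted p = 0.0240, up to 0.182), the 1 of 12 activity-dependent genes that passed, and Trib3 was the 1 of 13 stress genes. Atf3 was at 187 and 206 in Vip nuclei against 22.8 and 225, apart in the male and close in the female library (0.39 ± 0.59, adjusted p = 0.886). Of the 44 female UMIs of Lamp5 and Sncg nuclei behind the latter value, 32 were in 1 Sncg nucleus. Ecel1 was at 276 and 261 against 137 and 133, apart in both libraries, but the difference did not pass (1.02 ± 0.54, adjusted p = 0.476). In the AP-1 list (8 tested), the p53 list (10) and the DLK list (14) 0 passed in edgeR, with 1, 2 and 2 genes at an unadjusted p under 0.05, and DESeq2 called 0, 0 and 1.

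The last comparison set the group against the mean of 7 excitatory subclasses, to place the injury genes among the sorted neurons. Of 7894 genes, 1163 (14.7%) passed, 703 higher (8.91%) and 460 lower (5.83%), and this comparison shares the group's sums with the first. When the excitatory side of a library was left out, all 7 of its sums were left out together. All 8 tested GABA genes were higher, with Gad2 at 597 and 628 CPM against a mean of 7.50 and 11.5. The 10 highest genes were Dlx1as, Vip, Adarb2, Prox1os, Egfr, Dlx6os1, Pde11a, Npas1, Vwc2 and Kcnip1, and the last was at 611 and 915 against a mean of 12 and 7.43 (log2 fold change 6.75 ± 0.22, adjusted p = 2.93e-15). The 10 lowest, Bace2, Gpr26, Itga2, Igfn1, Nrap, Extl1, Trim17, Alg2, Inppl1 and Efcab11, had 0 UMIs in the group and passed the low-count filter only through other groups. Their bounds ran from at least 2.96-fold for Inppl1 to at least 12.5-fold for Igfn1. Without the female sum of the group the calls of Itga2, Igfn1, Nrap, Extl1, Trim17, Alg2, Inppl1 and Efcab11 were lost, with adjusted p from 0.113 to 0.239, and Prox1os passed the low-count filter only in the fits that left out the excitatory side of a library. Slc17a7, the vesicular glutamate transporter, was at 9.47 and 7.98 against a mean of 77.5 and 29.5 (adjusted p = 0.0824, and 0.00320 with the block).

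Atf3 was higher in the group than in the excitatory mean, at 118 and 216 CPM against 74.8 and 95.1 (log2 fold change 1.17 ± 0.35, adjusted p = 0.0242). The highest excitatory subclass reached 171 and 171, so the male value of the group lies inside their range, and without the female sum of the group the adjusted p was 0.703. Of 24 regeneration genes 4 were higher and 3 lower, where 8.91% of all genes tested were higher and 5.83% lower. Stat3, a transcription factor of cytokine signalling (0.97 ± 0.27), Stmn2 (0.64 ± 0.19) and the GDNF co-receptor gene Gfra1 (1.69 ± 0.51) were higher with Atf3, which is on both lists, and each had an adjusted p above the threshold without some sum (up to 0.498, 0.190 and 0.771). Nrn1, the secreted growth factor neuritin, had 2 UMIs against 912 (ratio 22, 6.07 to 182), where the lowest excitatory subclass had 30.1 and 36.4 CPM. Pvalb and Sst nuclei had 6 and 13 UMIs of Nrn1 in sums of 1430239 and 3375183, so its low level is not particular to the group. Sprr1a was at 9.47 and 5.32 against 54 and 57.3 (-2.57 ± 0.57, adjusted p = 0.00301, up to 0.160) and Klf6 at 18.9 and 18.6 against 72 and 46.2 (-1.48 ± 0.42, up to 0.233).

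In the DLK, JNK and SARM1 list 2 of 14 genes were higher than in excitatory neurons, where 8.91% of all genes tested were higher and 5.83% lower. Nmnat2, the axonal NAD-synthesizing enzyme whose loss starts axon degeneration, was at 464 and 506 CPM against 252 and 267, above the highest excitatory subclass, which had 326 and 309 (log2 fold change 0.95 ± 0.16, adjusted p = 1.78e-04). Dusp10 was at 275 and 90.5 against 42.5 and 34.3 (2.45 ± 0.31, adjusted p = 5.60e-06), above the highest excitatory subclass of its own library, which had 100.4 and 73.1. Pvalb and Sst nuclei had 607 and 1280 UMIs of Nmnat2 and 353 and 898 of Dusp10, in sums of 1430239 and 3375183. Neither gene was higher in the group than in Pvalb and Sst nuclei by the test of the first comparison, so neither level is particular to the group. Ddit3, at 71 and 29.3 against 173 and 122, was the 1 of 14 stress genes that passed (-1.44 ± 0.41, adjusted p = 0.0212, up to 0.469). Of 14 activity-dependent genes Pcsk1 was higher (1.49 ± 0.38), and Egr1 (-1.46 ± 0.38), Arc (1 UMI against 307 (ratio 14.8, 2.64 to 586)) and Btg2 (3 UMIs against 221 (ratio 3.55, 1.20 to 17.4)) were lower, with adjusted p up to 0.160, 0.426, 0.152 and 0.313 without a sum, and Btg2 at 0.0503 with the block.

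Other injury genes did not pass against excitatory neurons. Jun was at 61.6 and 69.2 CPM against 131 and 181 (log2 fold change -1.02 ± 0.38, adjusted p = 0.0838, and 0.0185 with the block), and Sox11 at 137 and 119.7 against 247 and 231 (adjusted p = 0.0893, and 0.0358 with the block). Ecel1 was at 218 and 194 against 226 and 341 (adjusted p = 0.537) and Gap43 at 493 and 381 against 381 and 424 (adjusted p = 0.746). Of the 13 p53 genes 0 passed in edgeR or DESeq2, with 4 at an unadjusted p under 0.05, and 2 were lower with the block.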

How the data were processed

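The authors aligned reads with Cell Ranger to GRCm38 (mm10) with introns counted, and deposited raw UMI counts per gene and barcode for each library. The score columns that the authors deposited with each nucleus, UMI and gene numbers after SCTransform depth correction, were not used. Their table of nuclei also held the percent of mitochondrial UMIs, clusters and subclass names from mapping to a cortical reference. The combined count matrix and the mitochondrial percent values deposited were not used for any result. Members and the 24 gene lists were chosen with earlier results of these data known.

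UMIs were summed per library for the group, its subclasses, pooled Pvalb and Sst nuclei and each of 7 excitatory subclasses with at least 20 nuclei, with library totals of 11007366 and 23202343 UMIs in 4044 and 4214 barcodes. Sums were fitted with edgeR 4.0.16 in R 4.3.3 (TMM, filterByExpr, glmQLFit and glmQLFTest, Benjamini-Hochberg, threshold 0.05). DESeq2 1.42.0, a fit with the library as a block and other filters were alternatives. Same-library sums come from the same pool, so libraries pair the sums, and their deviations correlated with r from 0.0393 to 0.206 over 7894 genes. The genes named were the markers, list members and, per comparison, the 10 with the largest fold change in each direction among those called and changed alike in both libraries. Intervals are exact 95% binomial ones. A floor of 3 UMIs over the group stood for 0. Results for some genes are not reported here.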

Additional observations from a re-analysis of the deposited data

Results flagged for a closer look

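With 1 library of each sex, no difference between the libraries could be tested, and the following pairs are log2 ratios within the male and within the female library that point in opposite directions. Gad1 in the group over Pvalb and Sst nuclei was -0.48 and 0.37. Dusp10 in the same comparison was 0.12 and -1.60. Ecel1 in Vip nuclei over Pvalb and Sst nuclei was 0.073 and -0.64, and in the group over the excitatory mean 0.22 and -0.74. Atf3 in Vip nuclei over Lamp5 and Sncg nuclei was 3.08 and -0.12, where 1 female Sncg nucleus held 32 of the 44 female Atf3 UMIs of Lamp5 and Sncg nuclei. Gap43 in the group over the excitatory mean was 0.62 and -0.074. These differences were not tested.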

How the results depend on the processing

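Some alternatives kept the sums of both compared sides. Under these the count of called genes ran from 799 to 1133 for the group against Pvalb and Sst nuclei and from 629 to 803 for Vip nuclei against them. It ran from 117 to 241 for Vip against Lamp5 and Sncg nuclei and from 1066 to 1369 for the group against excitatory neurons. A fit of only the compared sums, without those of other groups, gave 799, 650, 117 and 1066, and made 705, 574, 109 and 1062 of the main calls again. The library block gave 1133, 803, 233 and 1369, and with it 825 of 826, 638 of 638, 166 of 167 and 1159 of 1163 calls were made again. It changed no call among the values named other than those given with it beside their results. Without the low-count filter the share of higher calls fell from 54.8% to 45.0% for the group and from 50.9% to 36.3% for Vip nuclei against Pvalb and Sst nuclei, where the median of all genes was -0.11 and -0.33. The limit of 0.5% on microglial UMIs left out no nucleus, and a limit of 0.1%, chosen after seeing the data, gave 800, 629, 154 and 1141. For the group against excitatory neurons, the fits called below fits with 1 sum left out dropped all 7 excitatory sums of a library when they dropped that side. With 1 sum left out, counts were 347 to 632 (469 without the female Pvalb and Sst sum), 260 to 488, 73 to 124 (87 without the female Vip sum and 96 without the female Lamp5 and Sncg sum) and 555 to 1117, and the lowest came without the female sum of the group or of Vip nuclei, except for Vip against Lamp5 and Sncg nuclei, where it came without the male Vip sum. Thinning moved the share of nuclei with a UMI to 2.97 and 3.21% for Adarb2, 42.6 and 45.4% for Gad2, 36.6 and 48.6% for Atf3 and 51.5 and 64.3% for Ecel1 in Pvalb and Sst nuclei, from 5.46 and 10.9%, 55.6 and 76.8%, 44.4 and 72.4%, and 63.1 and 90.8%. Gad2 in the female nuclei of the group moved from 84.8% to 68.3%. Single genes turned direction only where they had not been called. Gad1 against Pvalb and Sst nuclei was -0.14 without the filter, -0.020 with ambient RNA subtracted and -0.41 and -0.081 without a female sum, and Jun was -0.15 without the filter and -0.16 without a sum. Without a sum Ddit3 was 0.021 there, Ecel1 in Vip nuclei 0.083, Ecel1 against excitatory neurons 0.18, and Atf3 in Vip against Lamp5 and Sncg nuclei -0.25. The causes were not tested. Of 2258 values of named genes under alternatives that kept the sums of both compared sides, 2170 kept their direction and their side of the threshold. A further 45 lost and 40 gained the call and 3 turned direction. Of 853 values with 1 sum left out these numbers were 637, 202, 6 and 8. The group had 211121 and 375787 UMIs, each side had 2 sums, and subclass names come from the same counts.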
